A study of Mus musculus with 10 samples.

Results

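The chromatin of 9 mouse genes of the interleukin-6 (IL-6) cytokine family was examined in bone marrow stroma. The genes are the cytokines Il6, Lif, Il11 and Clcf1, the receptor chains Il6st, Lifr, Osmr and Il11ra1, and the feedback inhibitor Socs3. They were chosen by name, with earlier results of these data known, and are 9 of the 21631 protein-coding genes of the gene table used here. A locus is the gene body plus the 10 kb before and after it, and the measure is the number of peak summits in it, a summit being the highest point of a peak of open chromatin.

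Open chromatin was mapped by ATAC-seq, in which a transposase cuts into accessible DNA, in 10 libraries of C57BL/6J cells. The rMSC group (revitalized mesenchymal stromal cells, n = 3) is cultured stroma transduced with 5 genes together, Irf3, Irf7, Klf7, Ostf1 and Xbp1. The control group (n = 3) is cultured stroma that received a control vector. Scf-GFP-positive cells (n = 2) and Scf-GFP-negative cells (n = 2) were sorted fresh from bone marrow and received no gene. Scf-GFP is a green fluorescent reporter of stem cell factor, the product of Kitl. Both sorted groups lacked the blood markers CD45 and Ter119 and the endothelial marker CD31, and the cultures were seeded from the Scf-GFP-positive fraction in medium with 20% serum and 10 ng/ml FGF-basic. Each library came from 2700 to 5000 sorted cells. Separate animals or cultures behind the replicates are not stated in the labels, and p-values therefore describe only how much these libraries vary. The contribution of each transduced gene cannot be told apart, and the sources used here do not give the vector or the time in culture.

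Cytokines of the IL-6 family signal through Il6st, the shared chain known as gp130. IL-6 and IL-11 first bind their own receptor chains and then bring gp130 chains together, whereas LIF and CLCF1 use gp130 with the LIF receptor, and oncostatin M can use gp130 with the oncostatin M receptor, Osmr. The receptors activate JAK kinases and STAT3, and STAT3 induces Socs3, which binds gp130 and blocks further signalling. In bone marrow, stromal cells are a known source of IL-6, LIF and IL-11, which act on blood progenitors, osteoblasts and osteoclasts.

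The deposited lists held 39936 to 78489 peaks per library, and because longer lists give more summits, summits were counted in equal-size lists of the 39912 strongest peaks. Read depth is unknown. The weakest peak of the equal-size lists had a −log10 q of 4.672 to 5.802 in rMSC, 4.615 to 5.127 in control stroma and 4.268 and 4.295 in Scf-GFP-positive cells, against 2.653 and 2.097 in Scf-GFP-negative cells. Summits at 10 mesenchymal stroma loci summed to 35 to 37 in rMSC libraries, 49 to 62 in control libraries and 57 and 45 in Scf-GFP-positive libraries, against 10 and 7 in Scf-GFP-negative libraries. Summits at 10 blood loci summed to 17 to 19 in rMSC, 17 in every control library and 20 and 22 in Scf-GFP-positive cells, against 49 and 57 in Scf-GFP-negative cells. Ptprc, which encodes CD45, had 2 summits in every cultured library and 0 in both Scf-GFP-positive libraries. It had 5 in each Scf-GFP-negative library, although both fractions were sorted to lack CD45. Single blood loci varied. Ikzf1 had 0 in every cultured library, 4 and 3 in Scf-GFP-positive cells, and 12 and 19 in Scf-GFP-negative cells. In Scf-GFP-positive cells Vav1 had 5 and 4 and Spi1 had 3 and 5, against 4 and 5 and 4 and 3 in Scf-GFP-negative cells. Lepr, a marker of stem cell niche stroma, had 0 summits in all cultured libraries, 2 in each Scf-GFP-positive library, and 1 and 0 in Scf-GFP-negative cells. Other stroma loci varied between culture and Scf-GFP-positive cells. Prrx1 had 3, 3 and 2 in rMSC and 4, 3 and 4 in control, against 7 and 5. Pdgfra had 8, 6 and 7 in rMSC and 6, 8 and 9 in control, against 9 and 5. Ebf3 had 5, 6 and 7 in rMSC and 11, 9 and 12 in control, against 3 and 4. Summits at 8 endothelial loci summed to 11, 9 and 11 in rMSC, 14, 11 and 11 in control and 9 and 9 in Scf-GFP-positive libraries. In Scf-GFP-negative libraries they summed to 10 and 21. Pecam1, which encodes CD31, had 0 and 4 summits in Scf-GFP-negative cells, 1 and 0 in Scf-GFP-positive cells and 1 to 3 in cultured libraries. The part that the stroma, blood and endothelial content of the Scf-GFP-negative fraction plays in the results below was not tested.

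Promoter windows of 5 members are shown, 3 because a peak at the start set Scf-GFP-negative libraries apart and 2 because the start had a peak throughout. Those of Il6, Osmr and Lifr lay in regions with a peak in every rMSC, control and Scf-GFP-positive library and with no peak or 1 weak peak in Scf-GFP-negative libraries, while those of Il6st and Socs3 lay in regions with a peak in all 10 libraries. Each runs from 250 bases before to 50 bases after a start site in RefSeq (GRCm38.p6, mm10 coordinates): chr5:30012864-30013163 on the plus strand for Il6, chr15:6874264-6874563 on the minus strand for Osmr, chr15:7129322-7129621 on the plus strand for Lifr, chr13:112463820-112464119 on the plus strand for Il6st and chr11:117969317-117969616 on the minus strand for Socs3. Capitals mark matches to 1 of 4 motifs searched on both strands.
Il6: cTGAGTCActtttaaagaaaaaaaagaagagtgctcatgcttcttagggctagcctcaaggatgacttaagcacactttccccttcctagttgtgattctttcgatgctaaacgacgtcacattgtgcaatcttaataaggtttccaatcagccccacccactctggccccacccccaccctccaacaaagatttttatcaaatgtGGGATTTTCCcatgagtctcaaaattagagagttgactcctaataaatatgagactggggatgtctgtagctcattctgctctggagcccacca
Osmr: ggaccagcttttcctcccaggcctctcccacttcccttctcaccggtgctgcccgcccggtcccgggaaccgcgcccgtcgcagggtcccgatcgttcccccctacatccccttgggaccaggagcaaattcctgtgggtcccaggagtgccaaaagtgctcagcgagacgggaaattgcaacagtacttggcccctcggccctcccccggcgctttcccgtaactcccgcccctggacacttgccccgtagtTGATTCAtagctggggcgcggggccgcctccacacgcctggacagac
Lifr: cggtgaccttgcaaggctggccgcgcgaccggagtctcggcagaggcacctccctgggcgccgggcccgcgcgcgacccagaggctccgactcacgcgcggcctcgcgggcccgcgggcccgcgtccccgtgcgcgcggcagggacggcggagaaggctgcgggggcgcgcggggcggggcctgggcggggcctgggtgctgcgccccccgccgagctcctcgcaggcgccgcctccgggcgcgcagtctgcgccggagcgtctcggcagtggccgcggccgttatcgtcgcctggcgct
Il6st: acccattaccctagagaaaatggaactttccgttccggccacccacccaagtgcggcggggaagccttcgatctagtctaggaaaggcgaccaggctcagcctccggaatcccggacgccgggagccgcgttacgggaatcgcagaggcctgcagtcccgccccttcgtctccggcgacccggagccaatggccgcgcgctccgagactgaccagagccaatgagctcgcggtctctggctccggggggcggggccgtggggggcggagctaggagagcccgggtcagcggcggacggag
Socs3: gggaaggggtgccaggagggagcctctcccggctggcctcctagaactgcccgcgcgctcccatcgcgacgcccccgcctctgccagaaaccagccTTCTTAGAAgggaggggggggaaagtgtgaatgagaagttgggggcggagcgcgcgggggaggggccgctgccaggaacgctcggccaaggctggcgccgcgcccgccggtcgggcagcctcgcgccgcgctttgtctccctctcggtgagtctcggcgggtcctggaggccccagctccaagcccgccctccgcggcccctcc

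The motifs were STAT (TTCNNNGAA, in 7.76% of 21045 promoter windows), AP-1 (TGANTCA, 7.04%), NF-kB (GGG, any 2 bases and TTTCC, 1.62%) and an interferon response motif (GAAA, any 2 bases and GAAA, 3.38%). The Il6 window held TGAGTCA at −249 to −243 from the start and GGGATTTTCC at −44 to −35. The Osmr window held TGATTCA at 3 to 9, and the Socs3 window held TTCTTAGAA at −154 to −146. Of windows not printed, that of Lif and 1 of those of Il11 held an AP-1 match. The windows of Lifr, Il6st and Il11ra1 held none of these letters. GC content was 81.3% in this Lifr window, 68.3% in that of Il6st and 44% in that of Il6, beside a median of 56.7% over all windows. A match describes the sequence and shows no binding.

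Lifr and Osmr, the receptor chains for LIF and oncostatin M, and Socs3 had more summits in Scf-GFP-positive than in Scf-GFP-negative cells, and no member had fewer. Socs3 and Lifr had fewer summits in control cultures than in Scf-GFP-positive cells, and Osmr had more. In rMSC, Socs3 had fewer summits than in control cultures and than in Scf-GFP-positive cells, and Osmr had more than in Scf-GFP-positive cells. The deposited peak names carry 2 run codes, 1 for replicate 1 of every group and 1 for the other replicates. With the run code as a term of the fit, both Osmr calls that involve cultured stroma (adjusted p = 0.0715 for control and 0.0616 for rMSC, limma) and the Socs3 call for rMSC against control (0.0602) were lost, and the other calls of members were kept. With the replicate number as a block, the Lifr (0.0579) and Socs3 (0.087) calls for control against Scf-GFP-positive cells were lost as well. The loci of Lif, Il11, Clcf1 and Il11ra1 did not pass in any comparison. The test was limma on log2(summits + 0.5) over the 9149 loci that averaged 2 or more summits a library, with Benjamini-Hochberg adjustment and a threshold of 0.05. Of the 9 members 7 entered it, since Il6 and Il6st had too few summits. Osmr reached the average of 2 through its cultured libraries.

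Between Scf-GFP-positive and Scf-GFP-negative cells, 3 of 7 tested members had more summits and 0 had fewer, beside 13.6% and 16.6% of all tested loci. The median change of the tested members was 0.79, which is that of Clcf1, and that of all tested loci was −0.23. For control against Scf-GFP-positive cells, 1 member had more and 2 had fewer, beside 5.22% and 5.62% of loci, with medians of −0.31 over members and −0.00 over all. For rMSC against control, 0 had more and 1 had fewer, beside 1.39% and 1.19% of loci, with medians of −0.22 and 0.00. At an unadjusted p under 0.05, 1 member (Lifr) had more there, and 0 members had fewer in Scf-GFP-positive than in Scf-GFP-negative cells. The share of all loci under that unadjusted p is not given, so these counts have nothing to be set against. For rMSC against Scf-GFP-positive cells, 1 had more and 1 had fewer, beside 7.21% and 6.5% of loci, with medians of −0.53 and 0.00. The comparisons share libraries and are not independent of one another. Since the members were chosen with earlier results of these data known, the shares of all loci are given as background and not as a test.

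The balance of directions over all loci depended on the peak lists, the flank and single libraries. Of loci called, 45% had more summits in Scf-GFP-positive than in Scf-GFP-negative cells in equal-size lists, against 78.8% with all deposited peaks and 73.6% with peaks of −log10 q of at least 5. The share was 54.4% with 2 kb flanks and 57.1% without Scf-GFP-negative replicate 2, where 1296 loci had more and 975 fewer, beside 1243 and 1517 with all libraries, and the median change was −0.02. The share with more was 48.2%, 76.4% and 81.7% for control against Scf-GFP-positive cells in the same order of peak sets. Set against control, rMSC had shares of 53.8%, 71.4% and 47.2%, and set against Scf-GFP-positive cells, shares of 52.6%, 81.7% and 80.8%. With a library left out, the share ranged over 44.1% to 58.2% for control against Scf-GFP-positive cells, 36.7% to 60% for rMSC against control and 49.5% to 62.1% for rMSC against Scf-GFP-positive cells.

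**Figure D1:**
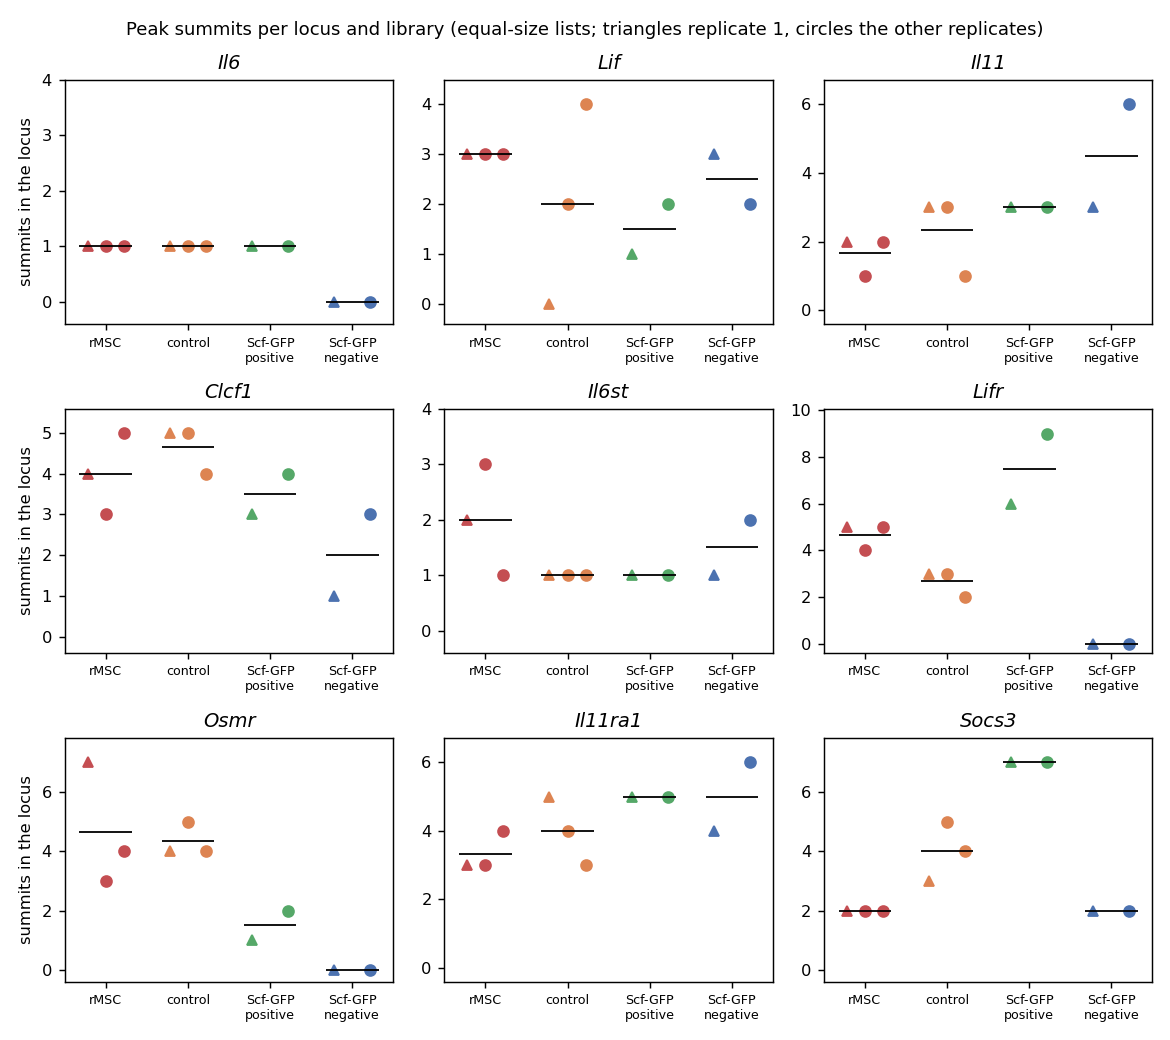
Peak summits in each member locus (vertical axis, a count) in every library of the 4 groups (horizontal axis), with a line at the group mean and triangles for replicate 1. Il6, Lifr and Osmr had no summit in either Scf-GFP-negative library, and Socs3 had 7 in both Scf-GFP-positive libraries against 2 in every rMSC and every Scf-GFP-negative library.

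Among the cytokines, Il6 (chr5:30013114-30019975), which encodes an inducer of the acute phase and of plasma and myeloid cells, had 1 summit in every rMSC, control and Scf-GFP-positive library and 0 in both Scf-GFP-negative libraries. That summit lay in a region of 1007 bases over the start, at a median of 38 bases upstream of it. The authors' fold enrichment there, the ratio of pileup to the caller's background, was 10.52, 7.72 and 8.92 in rMSC, 11.83, 13.11 and 11.57 in control stroma and 9.23 and 11.31 in Scf-GFP-positive cells. The peak stood above 39.5% to 56.3% of peaks in rMSC lists, 67.2% to 72.8% in control lists, and 62.5% and 74.0% in Scf-GFP-positive lists. Its rank was lower in every rMSC library than in any control or Scf-GFP-positive library. Il6 was below the summit filter and was not tested in the main fit. In a fit with no filter over 17862 loci it passed between Scf-GFP-positive and Scf-GFP-negative cells (limma, adjusted p = 4.83e-07). Libraries of a group all had the same count, so the locus itself had no spread. The small spread in the fit (SE of 0.04) combines this with the spread of other loci. The p-value thus rests on 1 summit against 0.

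Lif (chr11:4257568-4272514), which encodes leukemia inhibitory factor, had 3, 3 and 3 summits in rMSC, 0, 2 and 4 in control stroma, 1 and 2 in Scf-GFP-positive cells and 3 and 2 in Scf-GFP-negative cells. The control libraries spanned all other groups. Its changes were 0.98 ± 0.72 (SE) for rMSC against control (adjusted p = 0.558, limma) and −0.61 ± 0.88 between Scf-GFP-positive and Scf-GFP-negative cells (0.633). No peak region covered its RefSeq start in any library. A region at the 3′ end of the gene, 13688 bases into it, had a peak in 3 of 3 rMSC and 2 of 3 control libraries and in none of the 4 sorted libraries. A region 3729 bases into the gene had a peak in both Scf-GFP-negative libraries and 1 Scf-GFP-positive library and in no cultured library.

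Il11 (chr7:4772373-4782907), which encodes a cytokine active on stroma and bone, had 2, 1 and 2 summits in rMSC, 3, 3 and 1 in control stroma, 3 and 3 in Scf-GFP-positive cells and 3 and 6 in Scf-GFP-negative cells. Part of these lay at neighbours. The strongest peak of the locus was at the start of Rpl28, a ribosomal protein gene, and was present in all 10 libraries. With summits at other genes' starts left out, the locus had 0 in every rMSC library, 2, 2 and 0 in control stroma, 1 and 1 in Scf-GFP-positive cells and 1 and 3 in Scf-GFP-negative cells. A region near the second Il11 start, 895 bases inside it, had a peak in 2 of 3 rMSC, 3 of 3 control, 2 of 2 Scf-GFP-positive and 1 of 2 Scf-GFP-negative libraries when all deposited peaks were used.

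Clcf1 (chr19:4214238-4223505) encodes a ligand of the CNTF receptor complex. It had 4, 3 and 5 summits in rMSC, 5, 5 and 4 in control stroma, 3 and 4 in Scf-GFP-positive cells and 1 and 3 in Scf-GFP-negative cells. The group ranges overlapped in every comparison. The change between Scf-GFP-positive and Scf-GFP-negative cells was 0.79 ± 0.39 (adjusted p = 0.168, limma), and without Scf-GFP-negative replicate 2 it was 1.40 and passed (0.0202). A region of 2502 bases over the low-coordinate end of the gene had a peak in every rMSC, control and Scf-GFP-positive library and in no Scf-GFP-negative library. The authors' fold there was 12.14, 10.81 and 15.6 in rMSC, 17.0, 15.42 and 13.89 in control stroma and 6.39 and 5.03 in Scf-GFP-positive cells. It stood above 62.4% to 84.8% of peaks of the cultured libraries' lists and above 37.7% and 10.2% in Scf-GFP-positive cells. The start of Pold4, a neighbour, had a peak in all 10 libraries and counts in this locus.

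**Figure D2:**
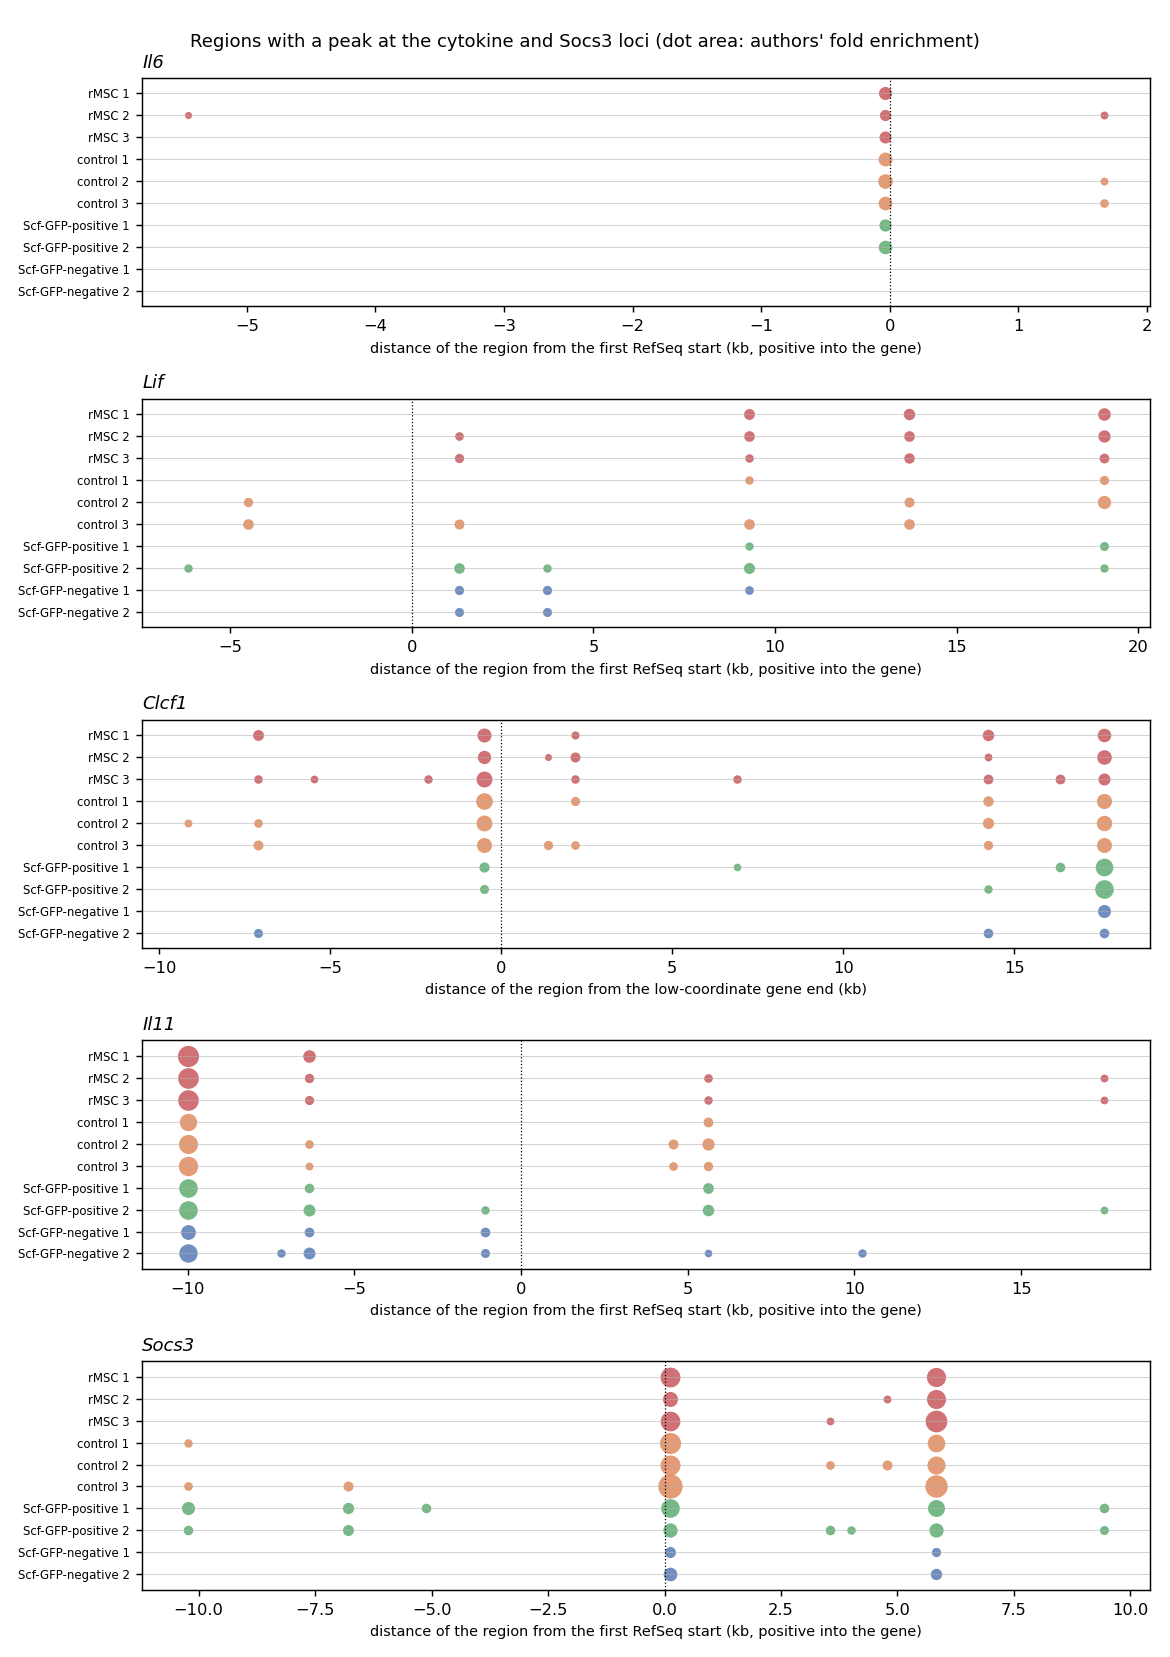
Regions with a peak at the cytokine loci and Socs3, by distance from the first start (horizontal axis, kb; for Clcf1 from its low-coordinate end), in each library (rows). Dot area is the authors' fold enrichment. The Il6 start and the Clcf1 end region have dots in all 8 rMSC, control and Scf-GFP-positive rows and none in the Scf-GFP-negative rows, and the Socs3 start and downstream region have dots in all 10 rows.

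Among the receptor chains, Il6st (chr13:112464070-112506860), the shared gp130 chain, had a start region with a peak in all 10 libraries. The authors' fold there was 22.66, 16.99 and 25.26 in rMSC, 17.0, 19.28 and 23.14 in control stroma, 36.23 and 29.54 in Scf-GFP-positive cells and 13.41 and 15.09 in Scf-GFP-negative cells. This peak stood above 82.4% to 92.8% of peaks in rMSC lists, 84.8% to 92.2% in control lists, 98.0% and 96.4% in Scf-GFP-positive lists and 88.1% and 81.1% in Scf-GFP-negative lists. Il6st had 2, 3 and 1 summits in rMSC, 1 in every control and Scf-GFP-positive library, and 1 and 2 in Scf-GFP-negative cells, and it was below the filter. In the fit with no filter it did not pass in any of the 4 comparisons (limma, adjusted p of 0.306 to 1). With all deposited peaks the counts were 3, 5 and 6 in rMSC, 2, 6 and 6 in control stroma, 1 and 1 in Scf-GFP-positive cells and 1 and 2 in Scf-GFP-negative cells. A region at −6553 bases from its start had a weak peak in all 6 cultured libraries, at 3.72 to 7.72 fold, and in none of the 4 sorted libraries.

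Lifr (chr15:7090610-7197489), the LIF receptor chain, had 5, 4 and 5 summits in rMSC, 3, 3 and 2 in control stroma, 6 and 9 in Scf-GFP-positive cells and 0 in both Scf-GFP-negative libraries. The 4 groups did not overlap, in the order Scf-GFP-positive, rMSC, control and Scf-GFP-negative. Against Scf-GFP-negative cells, Scf-GFP-positive cells had more summits (limma, adjusted p = 4.76e-05), and no fold is given because the locus was listed at 0. This call was kept in 15 of 15 alternatives and 10 of 10 fits with a library left out. Within the 2 run codes Scf-GFP-positive cells had 6 and 9 summits, against 0 and 0 in Scf-GFP-negative cells.

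Control stroma had fewer Lifr summits than Scf-GFP-positive cells (−1.33 ± 0.22, adjusted p = 0.0136), with within-run changes of −0.89 and −1.68. The call was lost without Scf-GFP-positive replicate 2 (−1.05, 0.0588) and in 6 of 15 alternatives, among them all deposited peaks (−1.41, 0.136) and the replicate block (−1.27, 0.0579). rMSC stood above control by 0.72 ± 0.20 and did not pass (adjusted p = 0.111), but it passed with 2 kb flanks (0.78, 0.0499). Its difference from Scf-GFP-positive cells was −0.61 ± 0.22 (adjusted p = 0.11), and passed in 3 of 5 repeated draws of tied peaks (−0.88 to −0.95, adjusted p of 0.0183 to 0.033).

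Chromosome 15, which carries Lifr and Osmr, held 2383 to 2409 peaks of the equal-size list in rMSC, 1735 to 1762 in control stroma, 1667 and 1672 in Scf-GFP-positive cells and 1389 and 1564 in Scf-GFP-negative cells. The folds given for Lifr and Osmr regions were not adjusted for this difference. In lists made equal on each chromosome, Lifr had 2, 3 and 2 summits in rMSC, 2, 3 and 2 in control stroma, 6 and 10 in Scf-GFP-positive cells, and 1 and 0 in Scf-GFP-negative cells. There rMSC differed from control by 0.00 (adjusted p = 1) and from Scf-GFP-positive cells by −1.56 (0.0638).

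By place, the Lifr locus held 28 regions, of which 20 had a peak in 1 library. Its start region at chr15:7128618-7130156 had a fold of 13.76, 13.13 and 14.86 in rMSC, 10.35, 9.25 and 14.66 in control stroma and 12.08 and 7.54 in Scf-GFP-positive cells, against 4.08 and no peak in Scf-GFP-negative cells. A region at chr15:7092195-7092953, near the low-coordinate end of the annotated gene, had a peak in all 8 libraries other than Scf-GFP-negative, at 15.37, 13.9 and 17.09 fold in rMSC, 9.61, 11.57 and 11.57 in control stroma and 5.68 and 8.8 in Scf-GFP-positive cells. The region at chr15:7090230-7090782 had a peak in every rMSC and Scf-GFP-positive library (8.09, 10.04 and 5.94 fold in rMSC and 7.1 and 6.29 in Scf-GFP-positive cells) and in no control or Scf-GFP-negative library. The region at chr15:7100127-7100679 had a peak in the 3 rMSC libraries, at 5.94 to 6.47 fold, and in no other. Of the 20 regions with a peak in 1 library, 11 were from Scf-GFP-positive replicate 2 and 4 from Scf-GFP-positive replicate 1.

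Osmr (chr15:6813568-6874968), the oncostatin M receptor chain, had 7, 3 and 4 summits in rMSC, 4, 5 and 4 in control stroma, 1 and 2 in Scf-GFP-positive cells and 0 in both Scf-GFP-negative libraries. The cultured libraries all stood above the sorted ones. Scf-GFP-positive cells had more than Scf-GFP-negative cells (limma, adjusted p = 0.00777), which was kept in the 14 alternatives that could be fitted and in 10 of 10 fits with a library left out. In the fit of these 2 groups alone Osmr was below the filter of 2 summits, which it passed through the cultured libraries. No fold is given, since the locus was listed at 0 in Scf-GFP-negative cells, and within both run codes the Scf-GFP-positive library was the higher.

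Control stroma had more Osmr summits than Scf-GFP-positive cells (1.31 ± 0.34, adjusted p = 0.049), with within-run changes of 1.58 and 0.99. This call held in 5 of 15 alternatives and in the fits without rMSC replicate 1 and without rMSC replicate 2. Leaving out any other library ended it (0.94 to 1.68, adjusted p of 0.0668 to 0.23). rMSC also had more than Scf-GFP-positive cells (1.34 ± 0.34, adjusted p = 0.0412), with within-run changes of 2.32 and 0.67. That call held in 8 of 15 alternatives and without rMSC replicate 2, and was lost without any other library (0.97 to 1.71, 0.0568 to 0.204). Osmr passed the summit filter through the cultured libraries, the same libraries in which these 2 calls place it higher. With no filter neither call passed (limma, adjusted p = 0.0608 for control and 0.0502 for rMSC). In lists equal on each chromosome the changes were 1.19 (0.0336) for control and 0.97 (0.0542) for rMSC. rMSC and control differed by 0.03 ± 0.30 (adjusted p = 1).

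The Osmr start region at chr15:6873163-6875208 had a fold of 15.37, 16.22 and 14.12 in rMSC, 9.61, 10.03 and 9.26 in control stroma, 7.81 and 6.29 in Scf-GFP-positive cells and no peak in Scf-GFP-negative cells. It stood above 75.7% to 80.7% of peaks in rMSC lists, 54.0% to 58.9% in control lists, and 53.4% and 39.2% in Scf-GFP-positive lists. A region 24215 bases into the gene (chr15:6849805-6850472) had a peak in all 6 cultured libraries and in no sorted library, at 14.56, 13.13 and 15.6 fold in rMSC and 8.13, 7.71 and 10.8 in control stroma. A region 16363 bases into the gene (chr15:6857515-6858278) had a peak in the 3 control libraries, at 6.65, 9.25 and 11.57 fold, and in no other. A region 12564 bases into the gene had a peak in 3 of 3 rMSC and 2 of 3 control libraries and in no sorted one.

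Il11ra1 (chr4:41760443-41769473) encodes the IL-11 receptor chain. It had 3, 3 and 4 summits in rMSC, 5, 4 and 3 in control stroma, 5 and 5 in Scf-GFP-positive cells, and 4 and 6 in Scf-GFP-negative cells. rMSC and Scf-GFP-positive libraries did not overlap, and the change did not pass (−0.53 ± 0.24, adjusted p = 0.188, limma). With summits at other genes' starts left out, every rMSC, control and Scf-GFP-positive library had 2. In lists equal on each chromosome rMSC had 3, 3 and 7, against 5 and 5 in Scf-GFP-positive cells, so the libraries overlapped. Mice carry near-identical copies of this gene, so how reads were placed is uncertain. The first start had a peak in all 10 libraries, at 9.91 to 32.37 fold. The second start, 514 bases from its region's summit, had a peak in all 6 cultured libraries, at 4.63 to 11.09 fold, and in no sorted library. A region 1048 bases upstream of the first start had a peak in both Scf-GFP-positive libraries, at 5.68 and 11.94 fold, and in no other. The starts of Galt and Ccl27a, neighbours in the locus, gave peaks in 10 and 9 libraries. Chromosome 4 held 1919 to 1935 peaks of the equal-size list in rMSC and 2263 to 2721 in the other libraries.

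**Figure D3:**
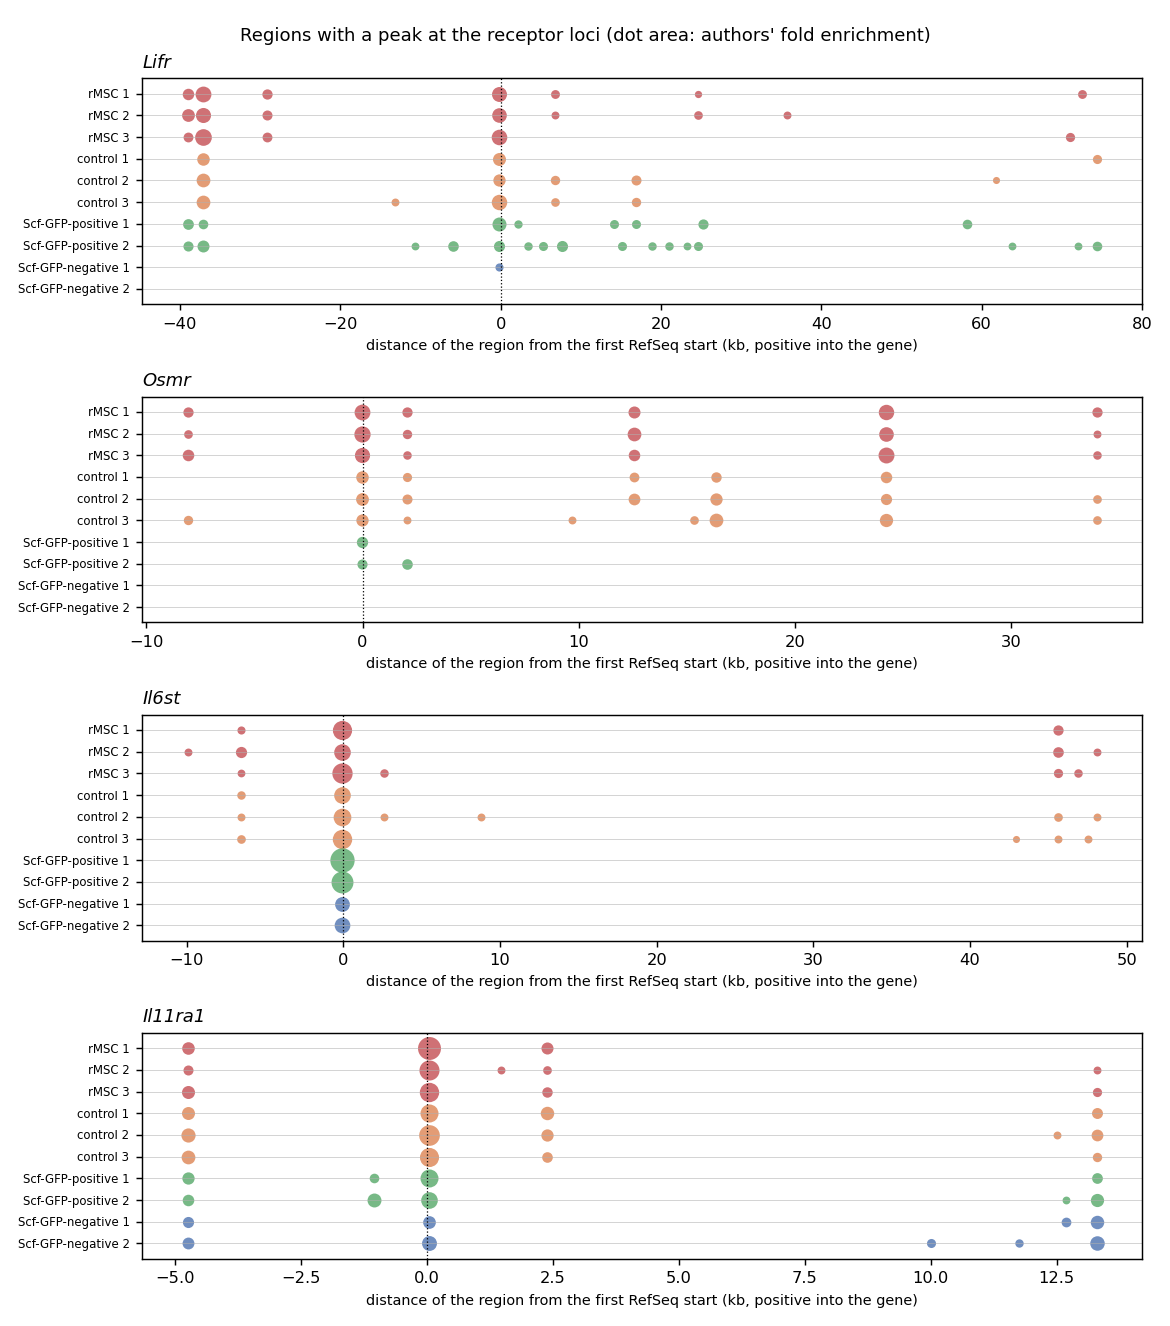
Regions with a peak at the receptor loci, by distance from the first RefSeq start (horizontal axis, kb), in each library (rows), with dot area for the authors' fold enrichment. The Il6st and first Il11ra1 starts have dots in all 10 rows, the Osmr start in 8 rows, and the region 24215 bases into Osmr in the 6 cultured rows and no other.

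Socs3 (chr11:117966079-117970336), the STAT3-induced inhibitor of gp130, had 2 summits in every rMSC library, 3, 5 and 4 in control stroma, 7 and 7 in Scf-GFP-positive cells and 2 and 2 in Scf-GFP-negative cells. Scf-GFP-positive libraries were above all others, and every control library was above every rMSC and Scf-GFP-negative library. Scf-GFP-positive cells had more than Scf-GFP-negative cells by 1.58 ± 0.19 (limma, adjusted p = 0.00129). rMSC had fewer than Scf-GFP-positive cells (−1.58 ± 0.18, adjusted p = 0.00266). Both were kept in the 14 alternatives that could be fitted and in 10 of 10 fits with a library left out. They were 1.58 and −1.58 within each run code. In rMSC, Scf-GFP-positive and Scf-GFP-negative cells all libraries of a group had the same count. Equal changes within run codes and with a library left out therefore follow from the counts. The spread behind these p-values came from the control libraries and from other loci. With 2 kb flanks Socs3 was below the filter and was not tested. It then had 1 summit in every rMSC library, 1, 3 and 1 in control stroma, 1 and 2 in Scf-GFP-positive cells and 1 and 1 in Scf-GFP-negative cells, so the groups overlapped, and most of the difference in summits lay more than 2 kb from the gene.

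Control stroma had fewer Socs3 summits than Scf-GFP-positive cells (−0.76 ± 0.18, adjusted p = 0.0369), with within-run changes of −1.10 and −0.59. The call was lost without either Scf-GFP-positive library (0.126 and 0.119), without control replicate 3 (0.08) and without any rMSC library (0.0579 to 0.0596). It was also lost in 4 of 14 alternatives, namely all deposited peaks (−0.47, 0.404), peaks of −log10 q of at least 5 (−0.66, 0.133), the 2 groups alone (−0.76, 0.134) and the replicate block (−0.77, 0.087). rMSC had fewer than control (−0.82 ± 0.16, adjusted p = 0.0449), with within-run changes of −0.49 and −0.99. That call was lost without either Scf-GFP-positive library (0.0642 and 0.0649), without control replicate 2 or 3 (0.0651 and 0.115) and without any rMSC library (0.116 to 0.119), and in 6 of 14 alternatives, among them all deposited peaks (−0.76, 0.241) and the run code term (−0.82, 0.0602).

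The start region of Socs3 (chr11:117967836-117970256) and a region downstream of it (chr11:117962025-117964401) had a peak in all 10 libraries. At the start the authors' fold was 24.27, 13.9 and 23.78 in rMSC, 27.35, 24.68 and 36.26 in control stroma, 21.31 and 12.57 in Scf-GFP-positive cells and 7.58 and 11.5 in Scf-GFP-negative cells. Downstream it was 22.66, 22.4 and 28.98 in rMSC, 19.22, 20.05 and 30.86 in control stroma, 17.76 and 12.57 in Scf-GFP-positive cells and 5.25 and 7.91 in Scf-GFP-negative cells. The further summits of Scf-GFP-positive cells lay mostly at weaker flanking regions. No Socs3 region had a peak in every control and no rMSC library. Part of the control summits above those of rMSC were additional summits within the start and downstream regions. A region 9428 bases downstream of the start had a peak in both Scf-GFP-positive libraries and in no other. Regions upstream, at −6796 and −10230 bases, had a peak in both Scf-GFP-positive libraries, in 1 and 2 of 3 control libraries, and in no rMSC or Scf-GFP-negative library. The start and downstream regions span 2421 and 2377 bases, and each summit in such a region counts singly.

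**Figure D4:**
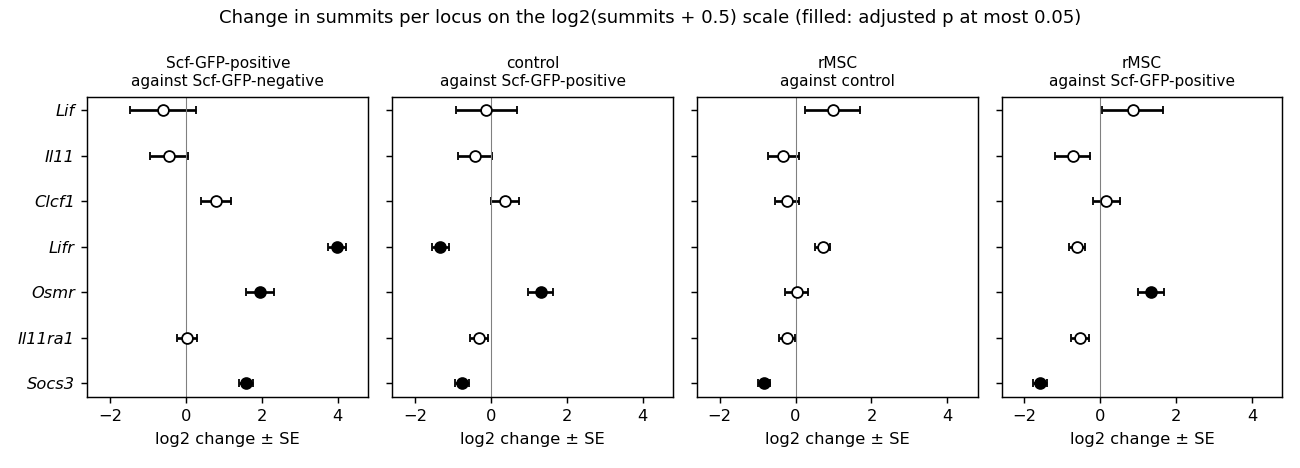
Log2 change in summits (horizontal axis, on the log2(summits + 0.5) scale, with SE) of the 7 tested members in the 4 comparisons, filled where the adjusted p is at most 0.05. Socs3 lies at 1.58 and −1.58 in the comparisons of Scf-GFP-positive with Scf-GFP-negative cells and of rMSC with Scf-GFP-positive cells. The Lifr and Osmr points in the first panel depend on the pseudocount, since Scf-GFP-negative cells had 0 summits.

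Over all 9 loci, the deposited peaks of the 10 libraries merged into 95 regions, of which 40 had a peak in a single library and 7 in all 10, beside 51.5% and 5.24% of the 201290 regions of the genome. By place, 11 lay at a member's own start, 8 at a neighbour's start, 40 elsewhere in a gene body and 36 in the flanks. A peak in every library of the group was found in 28 regions in rMSC, 20 in control, 22 in Scf-GFP-positive and 12 in Scf-GFP-negative cells, beside 20.4%, 18.2%, 15.8% and 10.5% of all regions. Without Scf-GFP-positive replicate 1, the shorter list of its group, that group's number became 45, and without Scf-GFP-negative replicate 1 its group's number became 19.

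Of the 95 regions, 10 had a peak in every Scf-GFP-positive and no Scf-GFP-negative library, beside 7.72% of all regions, and 0 were the other way, beside 2.19%. For control against Scf-GFP-positive cells there were 4 gained regions and 3 absent ones, beside 6.77% and 3.94%. The 4 were 2 at Osmr, 1 at Il6st and 1 at Il11ra1, and the 3 were at Lifr, Il11ra1 and Socs3. For rMSC against control there were 2, both at Lifr, and 1 the other way, at Osmr, beside 2.75% and 2.58%. For rMSC against Scf-GFP-positive cells there were 10 and 4, beside 8.65% and 4.57%. Osmr had 4 of the 10, Il6st had 2, and Lif, Clcf1, Lifr and Il11ra1 had 1 each. Socs3 had 3 of the 4 and Il11ra1 had 1. In equal-size lists these 10 and 4 became 4 and 5. Between Scf-GFP-positive and Scf-GFP-negative cells the 10 and 0 became 10 and 2 there, the 2 being at Lif and Il11, and for control against Scf-GFP-positive cells the 4 and 3 became 4 and 5. The 2 and 1 for rMSC against control were 2 and 1 there too. On chromosome 15, which carries Lifr and Osmr, equal-size lists held 2383 to 2409 peaks in rMSC and 1735 to 1762 in control. The shares set beside the region counts are those of the whole genome and not of chromosome 15.

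The rest of the pathway was described with 5 lists chosen with earlier results of these data known. Of 8 other ligands, among them oncostatin M and cardiotrophins, 3 were tested, and 0 passed in any comparison (limma), also at an unadjusted p under 0.05. Of 4 other receptor chains 2 were tested. Il31ra, the IL-31 receptor chain, had 1 and 4 summits in Scf-GFP-positive cells, against 6 and 7 in Scf-GFP-negative cells (−1.43 ± 0.42, adjusted p = 0.0393). Il6ra, the IL-6 receptor chain, did not pass in any comparison (1.06 ± 0.35, adjusted p = 0.0897, for rMSC against Scf-GFP-positive cells).

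Of 9 kinase and transcription factor genes 8 were tested. Tyk2, a JAK kinase, had 2 and 2 summits in Scf-GFP-positive cells, against 6 and 7 in Scf-GFP-negative cells (−1.48 ± 0.21, adjusted p = 0.00258), and it was the 1 gene of the list that passed there. Stat5b, a transcription factor activated by cytokine receptors, had 4, 4 and 4 in control stroma, against 7 and 9 in Scf-GFP-positive cells (−0.91 ± 0.18, adjusted p = 0.0208). It had 3, 4 and 3 in rMSC (−1.15 ± 0.18, adjusted p = 0.00799, against Scf-GFP-positive cells). Its neighbour Stat5a had 2, 2 and 3 in control stroma, against 6 and 7 in Scf-GFP-positive cells (−1.32 ± 0.33, adjusted p = 0.0462). Stat3 did not pass in any comparison (−1.18 ± 0.39, adjusted p = 0.0883, for rMSC against Scf-GFP-positive cells).

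Of 7 inhibitor genes 6 were tested. Ptpn6, a phosphatase best known from blood cells, had 4 and 5 summits in Scf-GFP-positive cells, against 12 and 8 in Scf-GFP-negative cells (−1.05 ± 0.19, adjusted p = 0.00633). Cish, a cytokine-induced inhibitor related to Socs3, had 6 and 8, against 11 and 11 (−0.63 ± 0.20, adjusted p = 0.0452). rMSC had 4, 4 and 4 Cish summits, against the 6 and 8 of Scf-GFP-positive cells (−0.72 ± 0.18, adjusted p = 0.0382). Socs1 and Socs2 did not pass in any comparison.

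Of 8 STAT3 target genes 7 were tested. Bcl3, which encodes a nuclear partner of NF-kB, had 8 and 8 summits in Scf-GFP-positive cells, against 2 and 1 in Scf-GFP-negative cells (2.13 ± 0.27, adjusted p = 0.0015). Pim1, which encodes a survival kinase, had 4 and 5, against 9 and 9 (−0.93 ± 0.25, adjusted p = 0.0287). Bcl6, which encodes a transcriptional repressor, had 3, 5 and 3 in control stroma and 3, 3 and 3 in rMSC, against 10 and 8 in Scf-GFP-positive cells (−1.22 ± 0.22, adjusted p = 0.0181, and −1.43 ± 0.22, adjusted p = 0.00799). For rMSC against control, 0 genes of the 5 lists passed (limma), beside 1.39% of all loci with more and 1.19% with fewer. At an unadjusted p under 0.05 there were 3, all of the kinase and transcription factor list. The share of all loci under that p is not given, so this count has nothing to be set against. Of 8 tested blood loci, 5 had fewer summits in Scf-GFP-positive than in Scf-GFP-negative cells and 0 had more. Of all tested loci, 16.6% had fewer and 13.6% had more. The part of blood content in the pathway loci with fewer summits there was not tested.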

How the data were processed

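Per the labels, ATAC-seq libraries were sequenced with 100 bp paired-end reads after 13 or 17 PCR cycles. Per the submitters' processing notes, the tools were BWA and MACS2 and the build was mm10, with no versions given, and the deposited peak names hold the word shift with no further detail. The authors deposited 1 narrowPeak list per library, called on that library alone. The authors give each peak a fold enrichment (a ratio), a p-value and a q-value, both as −log10, and a score. These values served to rank and filter the peaks of 1 list at a time and to describe peaks. Folds of different libraries are printed side by side but were not put on a common scale. The median fold of the equal-size list was 8.17 to 9.71 in rMSC and 8.13 to 9.25 in control stroma. It was 7.1 and 6.91 in Scf-GFP-positive cells and 5.83 and 6.47 in Scf-GFP-negative cells.

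Autosomal and X-linked peaks were ranked by −log10 p and cut to 39912 per library, with peaks of equal strength at the end drawn at random (725 to 8132 kept of 725 to 9121). A library with no listed peak at a site can be open there below detection. Summits were counted per locus with RefSeq genes of GRCm38.p6, and promoter windows came from the RefSeq table, where 17274 genes matched and Clcf1 did not. All coordinates are 1-based. Regions are peaks of all libraries that share a base, merged. Linear models of log2(summits + 0.5) were made with limma 3.58.1 in R 4.3.3 (Python 3.11.15, pandas 2.3.3) for all 4 groups together. They had 6 residual and 1.57 prior degrees of freedom, and tests were two-sided. The fit was also run on simulated Poisson counts around the mean of each locus, which do not copy the spread of these data. Its outcome is not given and is no support for the calls. This scale understates changes at loci with few summits. Depth is unknown, so no counting intervals are given.

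Named genes were every member in every comparison, passing genes of 5 pathway lists (up to 4 per direction), and regions at a member's start or present in every library of 1 group and none of the other. Some further regions were chosen after their values were seen. The members and lists were chosen with earlier results of these data known. Alternatives were other peak sets, flanks of 2 kb, neighbours' starts within 1 kb left out, a pseudocount of 1, no filter, fits of the 2 groups alone, a replicate block, libraries left out in turn, and the run code as a term, and 5 other draws of tied peaks, the last 2 chosen after seeing the data, as was leaving libraries out of the region counts.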

Additional observations from a re-analysis of the deposited data

How the results depend on the processing

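The number of loci called depended on the processing. It was 2760 between Scf-GFP-positive and Scf-GFP-negative cells, and became 1825 with 2 kb flanks, 1058 with the 2 groups alone, and 1832 to 2571 with a library left out. It was 992 for control against Scf-GFP-positive cells, and became 453 with all deposited peaks, 1728 with no filter, and 439 to 1332 with a library left out. It was 236 for rMSC against control, and became 35 with all deposited peaks, 155 with lists equal on each chromosome, 127 with the run code as a term, 693 with no filter, 388 with the 2 groups alone, and 81 to 463 with a library left out. It was 1255 for rMSC against Scf-GFP-positive cells, and became 2258 with no filter and 551 to 1555 with a library left out. With all deposited peaks the median change over all loci was 0.00, 0.08, 0.15 and 0.22 in these 4 comparisons, against −0.23, −0.00, 0.00 and 0.00 in equal-size lists.

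Replicate numbers gave no pairing: deviations of same-numbered libraries correlated at −0.01 to 0.01. With the replicate block the calls numbered 2288, 340, 65 and 581 in the same order of comparisons. The block kept Lifr (adjusted p = 0.00106), Osmr (0.0274) and Socs3 (0.00741) between Scf-GFP-positive and Scf-GFP-negative cells and Socs3 for rMSC against Scf-GFP-positive cells (0.0208). It ended the calls of Lifr (0.0579), Osmr (0.114) and Socs3 (0.087) for control against Scf-GFP-positive cells, of Osmr for rMSC against Scf-GFP-positive cells (0.101) and of Socs3 for rMSC against control (0.106).

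The regions present in every library of a group numbered 18 for rMSC in equal-size lists. With a library left out they numbered 29 to 32 for rMSC, 22 to 30 for control, 30 to 45 for Scf-GFP-positive and 15 to 19 for Scf-GFP-negative cells. Such numbers cannot fall, and for the sorted groups they count the regions of the remaining library alone.

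Only changes that had not passed turned sign (log2). With all deposited peaks, Lif became 0.33 between Scf-GFP-positive and Scf-GFP-negative cells, Il11 0.09 for control against Scf-GFP-positive cells, 0.02 for rMSC against control and 0.11 for rMSC against Scf-GFP-positive cells, Clcf1 0.08 for rMSC against control and Il11ra1 0.04 for control against Scf-GFP-positive cells. With peaks of −log10 q of at least 5, Il11 became 0.24 between Scf-GFP-positive and Scf-GFP-negative cells. With lists equal on each chromosome, Clcf1 became −0.05 and −0.07 for control and rMSC against Scf-GFP-positive cells, and Osmr −0.22 for rMSC against control, which was −0.04 with 2 kb flanks. Lif for control against Scf-GFP-positive cells became 0.01 with a pseudocount of 1, 0.67, 1.36 and 0.41 in draws 2, 3 and 4 of tied peaks, and −0.79 to 0.79 with a library left out. Clcf1 for rMSC against control became 0.10, 0.10 and 0.00 in draws 1, 2 and 4, and Osmr −0.04, −0.02 and −0.07 in draws 1, 3 and 4. With a library left out, Osmr for rMSC against control ranged over −0.28 to 0.27, Il11 for control against Scf-GFP-positive cells over −0.61 to 0.00, Clcf1 for rMSC against Scf-GFP-positive cells over −0.02 to 0.34 and Il11ra1 between Scf-GFP-positive and Scf-GFP-negative cells over −0.24 to 0.29. The cause of these shifts was not tested. Weak peaks at the ends of the lists, the low peak strength of Scf-GFP-negative lists and groups of 2 libraries limit what a missing peak or a change of 1 summit shows.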
